A study of Homo sapiens with 19 samples.

Results

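The regions described here are stretches of chromatin with a peak of dimethylated histone H3 lysine 4 (H3K4me2) in both vehicle libraries of MOLM-13 cells. They had none in either library of cells given Corin, once the peak lists were cut to equal length. Each of the 4 H3K4me2 peak lists was cut to its 30896 highest-scoring peaks, the length of the shortest list. The kept peaks were merged into 34863 union regions wherever they overlapped by at least 1 bp, and 593 of these regions (1.7%) had the pattern and are called lost. Of the lost regions, 325 of 17247 tested lay at promoters (1.88%), no more than 1000 bp from a transcription start site (TSS) of the annotation, and 268 of 17616 tested lay farther away and are called distal (1.52%). "Lost" therefore means below the cutoff in both Corin lists, not without a peak. The regions were chosen by these H3K4me2 ranks, so their H3K4me2 values are a description and carry no test.

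MOLM-13 is a human acute myeloid leukaemia line, and chromatin was profiled by CUT&RUN, in which an antibody-directed nuclease cuts out the DNA that carries a mark. The cells were given DMSO or Corin for 24 h, with 2 libraries of each treatment for H3K4me2, for acetylated H3 lysine 27 (H3K27ac) and for trimethylated H3 lysine 4 (H3K4me3). The labels give a concentration of 0.1 µM for both treatments, and what that means for the vehicle is not stated. Nothing in the labels says that the 2 libraries of a group came from separate cultures, so p-values measure the spread between these libraries, which may be technical. Libraries of cells given ATRA with Corin, against LSD1 or with IgG were not analysed here, and the values have no background antibody beside them.

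H3K4me2 marks promoters and enhancers, where it usually flanks the start site itself, which carries H3K4me3. The demethylase LSD1 removes H3K4me2 and H3K4me1 as a subunit of the CoREST complex, which also holds the deacetylases HDAC1 and HDAC2, and repressors such as GFI1 bring the complex to DNA. Corin is a hybrid inhibitor that blocks both the demethylase and the deacetylase activity of CoREST. In acute myeloid leukaemia LSD1 is known for holding back myeloid differentiation.

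The central 200 bp of 2 top-ranked lost promoters, of 3 top-ranked lost distal regions and of the GFI1 promoter region are shown so that base composition and motif letters can be seen beside the values that follow. They are read from hg38, plus strand, 5′ to 3′. Windows that overlapped an untranslated region were passed over, and the GFI1 window was added after its values were seen. Capitals mark matches, on either strand, to the short motifs that the text gives further on: TGACAG for MEIS, GGGCGGG for the GC box, CCAAT for NF-Y, AATCAC for GFI1, GAGGAAGT for PU.1 and TGTGGTT for RUNX. The promoter windows lie at chr4:88379087-88379286 (HERC6), chr3:48608737-48608936 (UQCRC1) and chr1:92484205-92484404 (GFI1). The distal windows lie at chr10:7488540-7488739 (near SFMBT2), chr5:83368364-83368563 (near VCAN) and chr4:129532837-129533036 (near C4orf33).
HERC6: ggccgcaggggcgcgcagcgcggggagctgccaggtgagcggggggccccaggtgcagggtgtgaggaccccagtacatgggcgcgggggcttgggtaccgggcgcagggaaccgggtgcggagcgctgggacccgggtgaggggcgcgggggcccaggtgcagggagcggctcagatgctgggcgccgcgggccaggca
UQCRC1: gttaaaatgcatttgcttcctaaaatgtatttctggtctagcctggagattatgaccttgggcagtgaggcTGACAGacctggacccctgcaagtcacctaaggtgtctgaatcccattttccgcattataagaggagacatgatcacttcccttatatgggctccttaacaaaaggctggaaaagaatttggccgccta
GFI1: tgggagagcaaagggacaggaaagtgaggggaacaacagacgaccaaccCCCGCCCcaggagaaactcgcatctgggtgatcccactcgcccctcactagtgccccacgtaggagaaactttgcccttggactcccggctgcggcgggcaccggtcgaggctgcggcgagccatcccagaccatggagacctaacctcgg
near SFMBT2: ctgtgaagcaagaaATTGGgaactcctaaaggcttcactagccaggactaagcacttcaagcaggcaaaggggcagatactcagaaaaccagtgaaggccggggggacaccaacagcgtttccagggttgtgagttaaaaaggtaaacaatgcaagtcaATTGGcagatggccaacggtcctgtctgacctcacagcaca
near VCAN: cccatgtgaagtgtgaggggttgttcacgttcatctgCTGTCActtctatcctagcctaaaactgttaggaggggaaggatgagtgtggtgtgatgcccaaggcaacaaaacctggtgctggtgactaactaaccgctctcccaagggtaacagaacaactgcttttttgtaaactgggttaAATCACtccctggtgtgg
near C4orf33: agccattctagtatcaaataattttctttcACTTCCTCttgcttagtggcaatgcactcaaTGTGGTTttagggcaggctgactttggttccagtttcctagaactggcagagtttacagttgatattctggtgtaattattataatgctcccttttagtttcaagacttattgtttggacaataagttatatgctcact
The HERC6 window is 78.5% G and C with 20 CG pairs, the GFI1 window is 63.5% with 13 and the UQCRC1 window is 45% with 2. The 3 distal windows are 50%, 48.5% and 36.5% G and C and hold 3, 2 and 0 CG pairs, so the UQCRC1 window is no richer than the first 2 of them.

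Before cutting, the H3K4me2 lists of Corin replicates 1 and 2 had 41152 and 40042 peaks and those of DMSO replicates 1 and 2 had 30896 and 32299, and the lowest score kept was 130 and 120 against 50 and 70. The score is the authors' own value for a peak, and its scale is not stated. Scores and ranks were used to order and cut each list. Ranks in the complete lists of both treatments stand beside each other in the text and plot only to show on which side of the cutoff a region fell, because ranks from lists of different lengths show no change. The Corin lists also covered more of the genome, 47.4 and 42.2 Mb against 33.4 and 36.6 Mb, so list length and treatment cannot be told apart. Fewer cells with the mark and less of the mark per cell cannot be told apart either, since the libraries come from bulk cells. The lists carry no read counts, so apart from the labelled minimum of 5000000 reads the sequencing depth is unknown. Of 10 myeloid marker genes, 7 had a kept H3K4me2 peak at a TSS in all 4 libraries (SPI1, CD33, FLT3, LYZ, CSF1R, CD68 and TYROBP) and FCER1G had one in none. The 4 erythroid and 3 liver markers had a peak in no library, and among T cell, B cell and fibroblast markers CD8A, CD79A, PAX5 and COL1A1 had one in all 4.

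Most lost regions were low-ranking peaks that kept a peak in the longer Corin lists. Before the lists were cut, 362 of the 593 (61%) had a peak in both Corin libraries, 130 in Corin replicate 1 only, 41 in Corin replicate 2 only and 60 (10.1%) in neither. Among promoters, 209 of 325 (64.3%) had a peak in both Corin libraries and 27 (8.31%) in neither. Among distal regions, 153 of 268 (57.1%) had one in both and 33 (12.3%) in neither. The median length covered by complete-list peaks within a lost promoter was 374 and 320 bp in the Corin libraries and 397 and 552 bp in the DMSO libraries. For distal regions it was 337 and 239.5 bp against 345 and 357 bp.

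The worse of a region's 2 DMSO ranks ran from 15708 to 30820 for lost promoters, with a median of 27376, and from 16117 to 30880 for lost distal regions, with a median of 28322.5. In all, 86.8% of lost promoters and 94.4% of lost distal regions fell among the last 25% of the DMSO ranks (beyond rank 23172), against 8.74% and 30.8% of the regions retained in all 4 libraries. Retained promoters had a median worse DMSO rank of 11574. The 3 lost regions closest to the cutoff were the ZNF24 promoter, ranked 30901 in Corin replicate 1, a distal region near ENSG00000271949, ranked 30880 in DMSO replicate 2, and one near PTGS1, ranked 30870 in DMSO replicate 1. The closest regions on the other side were the promoters of ELF2, OSBPL10 and TCF20, ranked 30894, 30887 and 30886 in Corin replicate 2. The same cutoff left 1362 regions gained, with a peak in both Corin lists and neither DMSO list. Splits that cross treatment left 746 regions in replicate 1 of both treatments only, 733 in replicate 2 only, 344 in Corin replicate 1 and DMSO replicate 2 only and 153 in Corin replicate 2 and DMSO replicate 1 only. By class, the 325 lost promoters stand beside 122, 207, 81 and 25 in these 4 splits, and the 268 lost distal regions beside 624, 526, 263 and 128. With the complete lists 67 regions had the lost pattern, and with the lists cut to equal covered length 2235 had it.

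**Figure D1:**
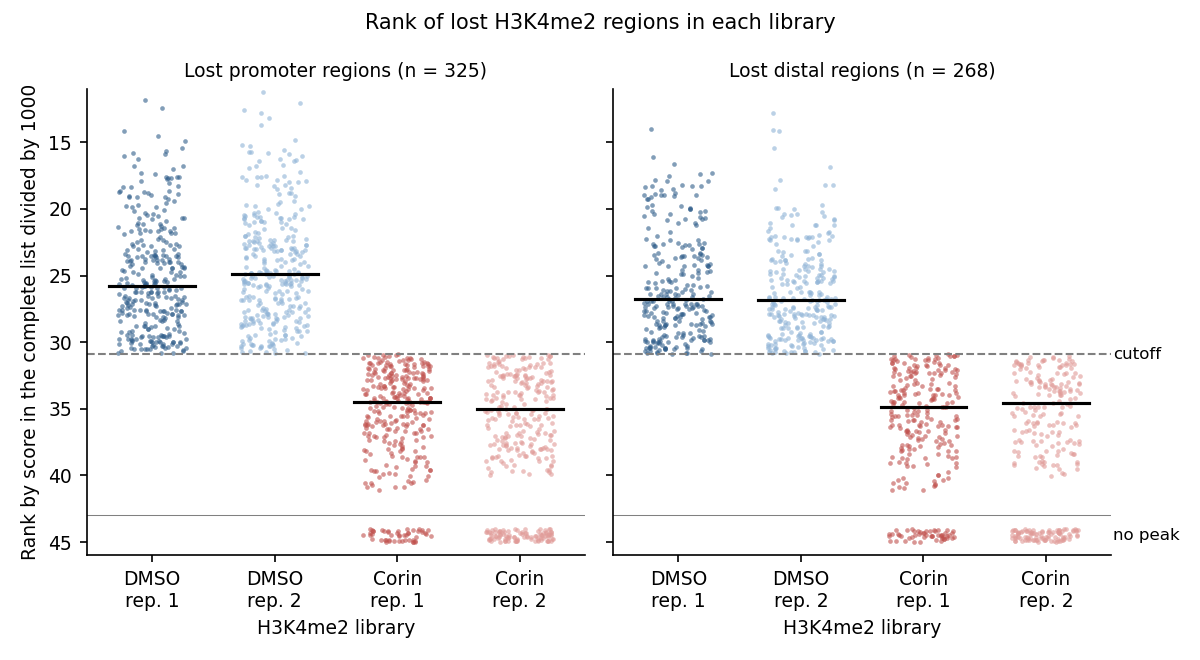
Rank by score of each lost H3K4me2 region in the complete list of each library (vertical axis, rank divided by 1000, best rank at the top), for 325 promoter and 268 distal regions. Each point is a region, black bars are medians over regions with a peak, the dashed line is the cutoff at 30896 and points in the lowest band had no peak; the DMSO points crowd towards the cutoff, with medians of 25753 and 24879 for promoters and 26741.5 and 26837 for distal regions.

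AP4E1, which encodes a subunit of the AP-4 adaptor complex of Golgi vesicles, had the best-ranked lost promoter region (chr15:50908797-50909528). It ranked 14184 and 15708 in DMSO replicates 1 and 2 and 32501 and 31098 in Corin replicates 1 and 2. H3K4me2 peaks still covered 592 and 410 bp of its 732 bp after Corin, against 543 and 732 bp after DMSO, and H3K4me3 was present in all 4 libraries. HERC6, an interferon-inducible ubiquitin ligase of the HERC family, followed with DMSO ranks of 16784 and 15830 and Corin ranks of 33902 and 37024. UQCRC1, a core subunit of respiratory complex III, ranked 16976 and 16692 after DMSO and 36472 and 33074 after Corin. Its region lay 448 bp from the nearest TSS, and all 4 libraries of both other marks had a peak there.

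The promoter of DYNC2LI1, a light intermediate chain of the dynein that carries cargo back along the cilium, ranked 16006 and 17980 after DMSO and 31413 and 31722 after Corin. It had H3K4me3 in all 4 libraries and H3K27ac in none. H3K4me2 peaks covered 893 and 865 bp of the 893 bp of DYNC2LI1 after Corin, against 874 and 879 bp after DMSO, so its covered length did not shrink.

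The leading 12 promoters also included NSRP1, a splicing regulator, whose 211 bp region also lies beside the microRNA gene MIR423, then MID1IP1, which promotes lipid synthesis, STIL, a centriole duplication factor, FAM199X, ZNF24, a SCAN-domain zinc finger protein, RBMX2, a spliceosome component, and LRRD1. Of these, NSRP1 had no peak in the complete list of Corin replicate 2, and every other one had a complete-list peak in both Corin libraries. The MID1IP1 region on chromosome X was the widest lost promoter at 2723 bp, with 1732 and 1115 bp covered after Corin and 2436 and 2253 bp after DMSO. The next widest were 2110 bp shared by AIMP1, a scaffold of the tRNA synthetase complex, and TBCK, and 2090 bp at GFI1.

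GFI1 encodes a zinc finger repressor that recruits LSD1 and CoREST to its targets, and it showed a gap in H3K4me2 inside the gene (chr1:92483260-92485349, minus strand). Complete-list peaks covered 1572 and 2090 bp of the region in DMSO replicates 1 and 2, 0 bp in Corin replicate 1 and 136 bp in Corin replicate 2. The DMSO ranks were 21389 and 20617, and the only Corin peak ranked 35542. The region lies 1576 to 3665 bp downstream of the 5′ end of the gene and contains 1 annotated TSS of GFI1. On both sides H3K4me2 was retained in all 4 libraries: one region of 3788 bp covers the 5′ end of the gene, with 2834 and 3197 bp under Corin peaks and 2450 and 3484 bp under DMSO peaks, and another of 7739 bp lies farther into the gene. H3K27ac and H3K4me3 peaks overlapped the gap in all 4 libraries, and a single H3K27ac peak spanned it in Corin replicates 1 and 2 (12435 and 9918 bp long) and in DMSO replicate 2 (7051 bp). Of the 10 LSD1-recruiting repressor genes tested, GFI1 was the 1 with a lost region (10%, against 2.54% of all genes), and all 10 had a retained region at a TSS, as did 91.2% of all genes. The region also had the lost pattern with 25000 peaks a list, but not with 20000, with the complete lists or with regions merged within 500 bp.

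**Figure D2:**
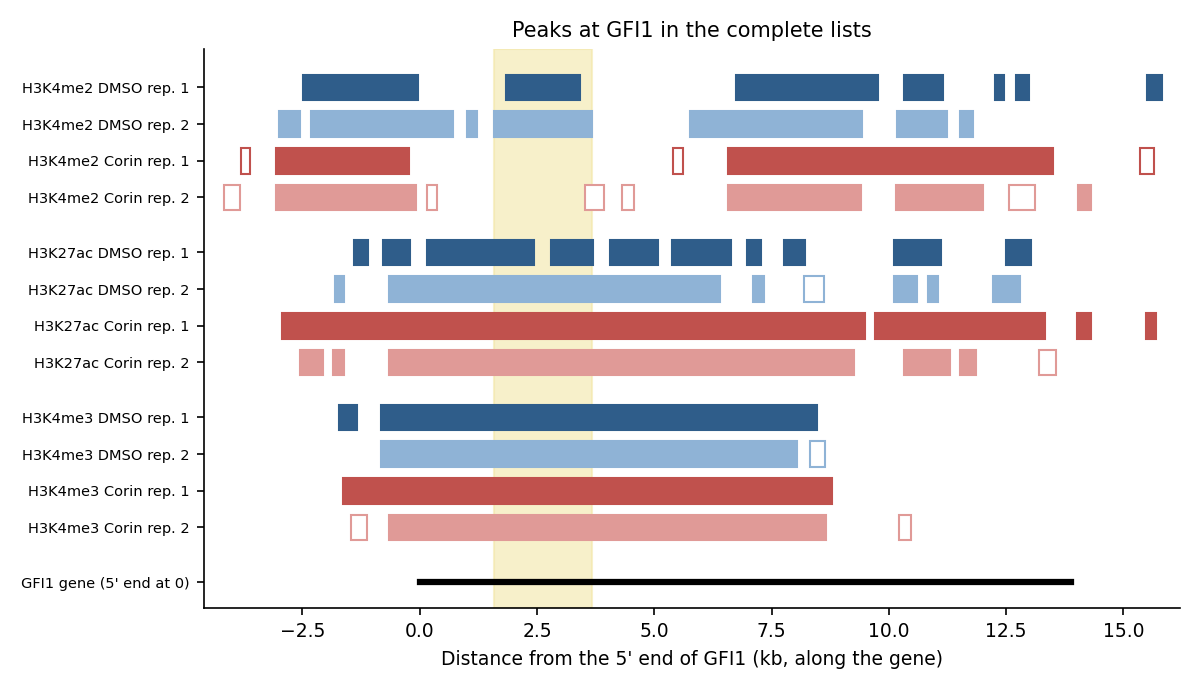
Peaks around GFI1 in the complete lists of 3 marks (rows: mark and library; horizontal axis: distance from the 5′ end along the gene, kb). Filled bars are peaks kept at the matched number, open bars are peaks below the cutoff, and the shaded band is the lost region, where H3K4me2 covered 1572 and 2090 bp after DMSO and 0 and 136 bp after Corin while H3K27ac and H3K4me3 peaks overlapped it in all 4 libraries.

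Lost promoters with no peak in either complete Corin list numbered 27, and the 5 best-ranked were PURPL, TRIM66 with RPL27A, EIF2S3, INTS6 and KCNK10. At RPL27A, a protein of the large ribosomal subunit, the lost 909 bp (chr11:8681655-8682563) lie upstream of the gene, with 701 and 716 bp covered after DMSO and 0 bp in both Corin libraries. The retained region of 3012 bp that begins farther downstream, at position 8683583, kept a peak in all 4 libraries, and H3K27ac and H3K4me3 peaks overlapped the lost region in all 4 as well. INTS6, an Integrator subunit, lost 504 bp with ranks of 24026 and 25337 after DMSO and likewise had both other marks in all 4 libraries. KCNK10, a leak potassium channel gene, had neither. EIF2S3, a translation initiation factor subunit on chromosome X, had 314 and 308 bp covered after DMSO.

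Promoters made up 54.8% of the lost regions (95% exact binomial interval 50.7% to 58.9%, counting error only), below their 64.3% of the 23684 regions with a kept peak in both DMSO lists, the regions that could be lost, and 65.5% of the retained. Of those regions, 2.13% of promoters and 3.17% of distal ones were lost. Promoters were 49.5% of all tested regions, whichever lists they came from, and 8.88% of the gained. The promoter share of the lost regions depended on the cutoff and on the libraries used. It was 68.8% with 25000 peaks a list, 41.8% with the complete lists and 34.7% without DMSO replicate 2. These values lie outside the interval, which does not cover such choices, so the order of the shares is a description of this cutoff only. A bound of 1 kb, near the median distance of 1080 bp to a peak kept in either Corin list, divided the lost promoters into 2 kinds. Of the 325, 155 (47.7%) lay within 1 kb of such a peak and 170 did not. The second kind was not without the mark after Corin. Before the lists were cut, 119 of the 170 (70%) had a peak in both Corin libraries, against 90 of the 155 (58.1%). Those beside a kept Corin peak had a H3K4me3 peak in 78.1% and 74.8% of cases in the Corin libraries and in 74.8% and 80% in the DMSO libraries. Those without such a neighbour had one in 37.6% and 38.2% against 34.1% and 37.1%. H3K27ac split the same way, with 42.6% in both Corin libraries against 38.1% and 42.6% in DMSO for the first kind, and 18.2% and 14.1% against 13.5% and 15.3% for the second. The 328 protein-coding genes at lost promoters were 2.54% of the 12896 genes with a tested region at a TSS. Of the 328 genes, 167 (50.9%) also had a region retained in all 4 libraries at a TSS, and 207 (63.1%) had another region with a kept Corin peak there. A retained region was found at 91.2% of all genes tested, but the 2 shares are not alike. A gene of the 328 needs a region besides its lost one, while any other gene can count with its only region.

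Lost promoters were narrower than retained ones and richer in CG pairs. The median width was 625 bp against 1937 bp for retained promoters. Width and rank go together, and retained promoters among the last 25% of the DMSO ranks had a median of 1128 bp. The median G and C content was 57.4% in lost promoters, 54.2% in all tested promoters and 50.8% in gained promoters. A ratio of observed to expected CG pairs of at least 0.6, the usual mark of a CpG island, was found in 68.6% of lost promoters, 48.9% of all tested and 18.2% of gained ones. Among retained promoters of the last 25% of ranks it was found in 47.2%. The splits that cross treatment shared these traits in part. Promoters with a peak in replicate 2 of both treatments only had a median width of 593 bp and a CG ratio of at least 0.6 in 61.4%, and those in replicate 1 only had 660.5 bp and 33.6%. Those in Corin replicate 1 and DMSO replicate 2 only had 589 bp and 54.3%, and those in Corin replicate 2 and DMSO replicate 1 only had 435 bp and 20%. G and C content also differed between the splits. Its median was 47.6% in promoters with a peak in replicate 1 of both treatments only and 62.3% in those of replicate 2 only. It was 57.2% for Corin replicate 1 with DMSO replicate 2 and 47.7% for Corin replicate 2 with DMSO replicate 1. The part of this composition difference between libraries in the lost set was not tested.

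At lost promoters and at matched peak number, the other marks differed by less than their spread between libraries. A kept H3K27ac peak was present at 29.8% and 27.7% of the 325 in Corin replicates 1 and 2 and at 25.2% and 28.3% in DMSO replicates 1 and 2. The groups overlapped, and the difference was 2.0 ± 2.66 percentage points (SD, n = 2 against 2; two-sided exact permutation test p = 0.667). With all H3K27ac peaks of each list, the longer Corin lists included, the difference was 11.8 percentage points and the 2 groups did not overlap (exact permutation test p = 0.333). A kept H3K4me3 peak was present at 56.9% and 55.7% after Corin and at 53.5% and 57.5% after DMSO, a difference of 0.769 ± 2.96 percentage points (SD, n = 2 against 2; exact permutation test p = 1). With 2 libraries against 2 the exact test cannot give a p below 0.333, and all 8 adjusted p-values of the family were 1. With these spreads a change of a few percentage points was not detectable.

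At lost distal regions and at matched peak number, the mean shares of the 2 treatments were equal. H3K27ac was present at 25.7% and 23.1% of the 268 lost distal regions after Corin and at 24.3% and 24.6% after DMSO, a difference of 0 ± 1.87 percentage points (SD, n = 2 against 2; exact permutation test p = 1), which became 9.33 points with all H3K27ac peaks of each list (exact permutation test p = 0.333). H3K4me3 was present at 5.22% and 4.85% against 4.85% and 5.22% (exact permutation test p = 1). The distal regions retained in all 4 libraries carried more H3K27ac after Corin, 48.2% and 45.0% against 39.8% and 39.8%. The share at lost distal regions therefore differed from that of retained ones by -22.5 and -21.8 percentage points after Corin and by -15.5 and -15.2 after DMSO. The gap changed by -6.80 ± 0.521 percentage points (SD, n = 2 against 2; exact permutation test p = 0.333, the smallest this design allows; adjusted p = 1). The 2 Corin libraries lay apart from the 2 DMSO libraries in this gap, but the test cannot pass a threshold of 0.05. The gap changed by -10.5 points with all H3K27ac peaks and by -10.6 with at least 50% of a region covered. Lost and retained regions also differ in rank. Among the last 25% of the DMSO ranks, H3K27ac was present at 25.3% and 22.9% of lost distal regions after Corin and at 23.7% and 24.1% after DMSO. Retained distal regions of those ranks had it at 37.3% and 32.9% after Corin and at 28.6% and 27.2% after DMSO, so the gap was smaller in every library. For H3K27ac at promoters, the gap changed by -0.656 ± 2.37 points (exact permutation test p = 0.667), for H3K4me3 at promoters by 1.06 ± 1.64 (exact permutation test p = 0.667) and for H3K4me3 at distal regions by -0.210 ± 0.192 (exact permutation test p = 0.333).

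**Figure D3:**
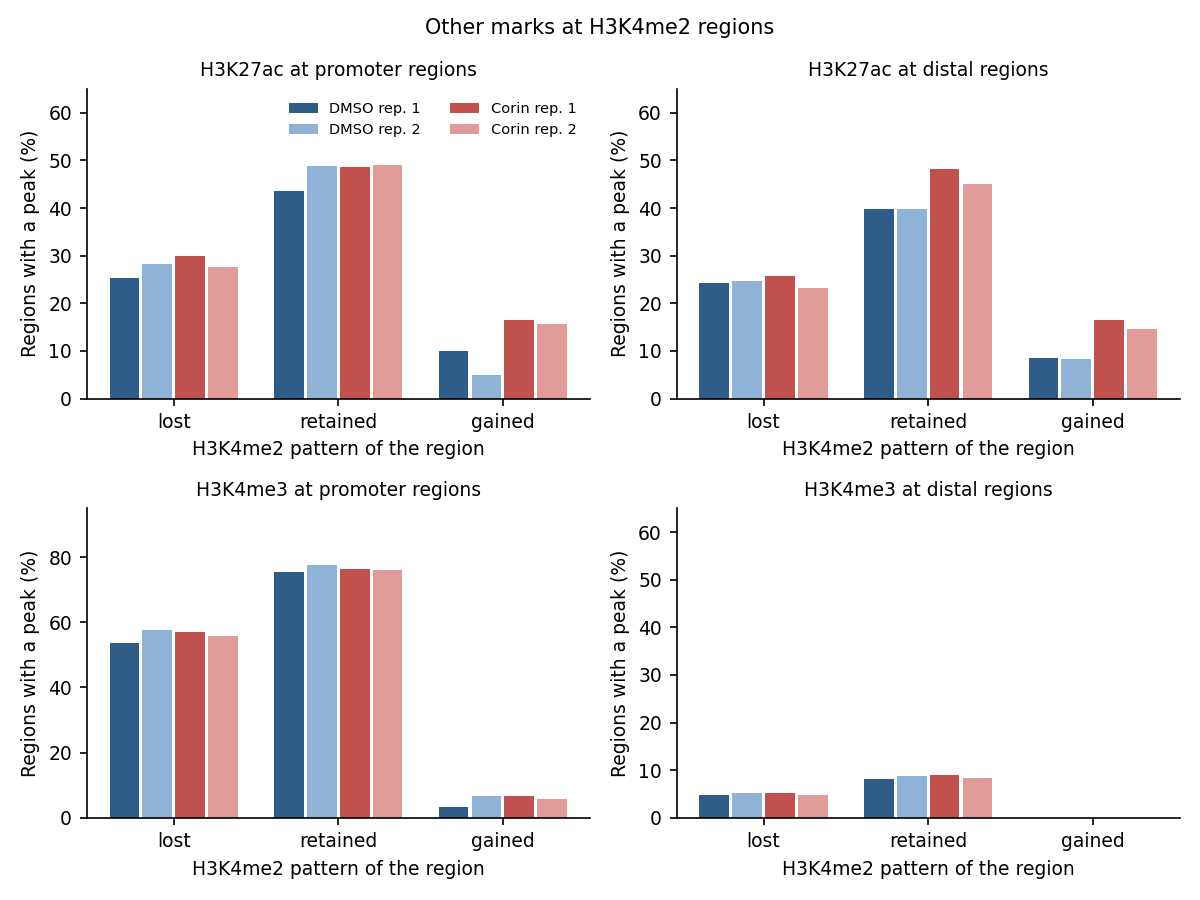
Share of lost, retained and gained H3K4me2 regions with a kept peak of H3K27ac (upper panels) or H3K4me3 (lower panels), for promoter and distal regions, with a bar for each library (vertical axis, percent; the lower left panel has a taller scale). At lost promoters the 4 H3K27ac bars lie between 25.2% and 29.8%, and at retained distal regions the Corin bars reach 48.2% and 45.0% against 39.8% for both DMSO bars.

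Few lost regions lost another mark as well. A H3K27ac peak in both DMSO lists and neither Corin list at matched number was found at 4 lost promoters (1.23%, against 0.957% of all tested promoters) and 2 lost distal regions (0.746%, against 0.562%). The promoters were NPRL3, a component of a complex that restrains mTORC1, NSRP1, CRYBB2P1 and DMAC1, a factor in the assembly of respiratory complex I. At NPRL3 complete-list H3K27ac peaks covered 199 and 202 bp in the Corin libraries, against 217 and 214 bp in DMSO, and at NSRP1 the overlap in DMSO replicate 1 was 1 bp. At DMAC1 they covered 0 and 276 bp in the Corin libraries and 172 and 3 bp in DMSO, so these 3 calls rest on the cutoff or on an edge. The distal pair had no H3K27ac in either complete Corin list. They lie in an intron of SLC39A9, 41299 bp from the TSS of PLEKHD1 (434 and 220 bp after DMSO), and 835798 bp from that of ERBB4 (300 and 303 bp). The SLC39A9 region was also the widest lost distal region, at 1454 bp.

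H3K27ac was gained at 2 lost promoters (0.615%, against 2.06% of tested promoters) and at 3 lost distal regions (1.12%, against 2.66%). The promoters were AP4E1, where complete-list peaks covered 604 and 421 bp in the Corin libraries against 0 and 218 bp in DMSO, and ZNF587, with 664 and 251 bp against 0 and 254 bp. The distal regions included 1 near WNK1 and 1 on chromosome Y, both with no H3K27ac in the complete DMSO lists. H3K4me3 was lost at 1 promoter (0.308%, against 0.557%), that of GCSH of the glycine cleavage system, and at 1 distal region (0.373%, against 0.0965%), in COX7B on chromosome X. It was gained at 3 promoters (0.923%, against 0.429%), STMN1, a tubulin-binding protein gene, MED1, a Mediator subunit, and EIF2S3, and at 0 distal regions, against 0.114% of those tested. Several of these H3K4me3 calls rest on short overlaps. In DMSO replicates 1 and 2 complete-list H3K4me3 peaks covered 65 and 101 bp at GCSH and 17 and 42 bp at COX7B. In Corin replicates 1 and 2 they covered 49 and 207 bp at STMN1, 234 and 29 bp at MED1 and 284 and 275 bp at EIF2S3. Counts of 0 to 4 are too small to set the lost regions apart from the background in either direction.

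Among distal regions, the best-ranked lay between genes on chromosome 10 (chr10:7488408-7488871), 76922 bp from the TSS of SFMBT2. It ranked 16117 and 14093 after DMSO and 33982 in Corin replicate 1, and had no peak in Corin replicate 2. H3K27ac peaks overlapped it in all 4 libraries. The next lay 102795 bp from VCAN, which encodes the matrix proteoglycan versican, with ranks of 19247 and 18188 after DMSO and 33445 and 33542 after Corin. The third, 436430 bp from C4orf33, ranked 17847 and 19984 after DMSO and 35974 and 34871 after Corin. Neither of these 2 had lost its peak in the complete Corin lists.

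The fourth lay in an intron of MBNL1, a splicing regulator, with H3K4me3 over its whole 813 bp in all 4 libraries. H3K4me2 covered 712 and 778 bp of it after DMSO, 639 bp in Corin replicate 1 and 0 bp in Corin replicate 2. The others among the leading 12 were nearest to DEFB131A, PARP8, EIF1, HRH4, MAP3K7CL, DIPK2B (in an intron of MIR222HG), FER1L6 and LIMK2. The regions near DEFB131A, PARP8, HRH4 and FER1L6 had neither other mark in any library. After the region in SLC39A9, the widest were 1347 bp in PCNX1 and 1240 bp in CPEB2. Of the 33 distal regions with no peak in either complete Corin list, the 5 best-ranked lay near KLRF1, AP1M2, IRAK1BP1, PDPK1 and AIFM3, and the last of these had H3K27ac in all 4 libraries.

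Lost distal regions were placed much as retained ones were. Introns held 161 of the 268 (60.1%), exons 11 and intergenic sequence 96, and the median distance to a TSS was 11131 bp, against 12142.5 bp for retained distal regions, of which 59.0% were in introns. Their median width was 496 bp against 1268.5 bp, and 50.4% were narrower than 500 bp. As at promoters, part of the width difference is built in by the number of lists merged. A kept Corin peak lay within 1 kb of 47 (17.5%). Any kept H3K4me3 peak was found at 16 of the 268, and 12 (4.48%) had one in all 4 libraries, against 2.92% of all tested and 6.44% of retained distal regions. Among the 12 were those near MBNL1, EIF1, ANP32A, GSE1, SKIDA1, MEF2C and SATB1. No H3K4me3 peak was found at 94% of the lost and 94.9% of all tested distal regions. H3K4me3 was more frequent beside kept Corin peaks: of the 47 with a kept Corin peak within 1 kb, 23.4% and 23.4% had H3K4me3 after Corin and 21.3% and 23.4% after DMSO, against 0.905% to 1.36% of the other 221.

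The gene groups examined each held 0 to 15 genes with a lost promoter, and 2.54% of all protein-coding genes had one. Of the 17 lists, 7 held none, 4 had shares of 1.32% to 4.76% and 6 had shares of 7.32% to 11.8% that rest on 1 to 3 genes each. No gene of the CoREST complex (13 tested), of the myeloid transcription factors (15), of mitosis (28), of DNA repair (36), of the replication-dependent histones (54), of the snoRNA hosts (24) or of the erythroid list (4) had a lost promoter. The largest count was in the zinc finger genes, 15 of 315 (4.76%), among them ZNF24, ZNF182, ZNF678, ZNF2 with ZNF514, and ZNF510. ZNF2 and ZNF514 share 1 region, as do ZNF10 and ZNF891 at both of their lost regions, so the 15 genes are not 15 separate places. ZNF182, on chromosome X, ranked 21679 and 17935 after DMSO and 34200 and 32960 after Corin, with H3K27ac and H3K4me3 in all 4 libraries.

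DNA replication genes gave 3 of 41 (7.32%), each with a different job at the fork: GINS3 of the replicative helicase, RFC3 of the clamp loader and RPA2, which coats single-stranded DNA. GINS3 and RFC3 also had a retained region at a TSS. RPA2 did not, and it ranked 29332 and 30175 after DMSO and 31505 and 31285 after Corin, so that it lay just above the cutoff in one treatment and just below it in the other. The proteasome gave 3 of 36 (8.33%), the core subunits PSMA1 and PSMB3 and the assembly chaperone PSMD10, and respiratory complex I gave 3 of 37 (8.11%), NDUFA10, NDUFA5 and NDUFB4. NDUFB4 ranked highest of these, at 18648 and 20683 after DMSO and 31801 and 37452 after Corin. Of the 6 proteasome and complex I genes, 4 kept a retained region at a TSS and all 6 had H3K4me3 in all 4 libraries. Mitochondrial ribosomal proteins gave 2 of 76 (2.63%), MRPL41 and MRPS18C, cytosolic ones 1 of 76 (1.32%), RPL27A, and interferon-stimulated genes 1 of 24 (4.17%), STAT2, with ranks of 24008 and 25744 after DMSO and 31234 and 35601 after Corin. Counts of 1 to 3 genes do not set a list apart from all genes.

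Several transcription factor genes of the blood lineages and leukaemia had lost regions, 2 of 18 among MLL-fusion targets (11.1%) and 2 of 17 among stem and progenitor factors (11.8%), against 2.54% of all protein-coding genes. The myeloid transcription factors had 0 of 15, and counts of 2 do not set a list apart. MEF2C, a MADS-box factor and MLL-fusion target, lost 225 bp at a promoter, with 219 and 197 bp covered after DMSO and 0 bp in both Corin libraries, and 687 bp beside it. Both regions lie in the space between retained regions of 8359 and 7853 bp, and H3K4me3 was present over both in all 4 libraries. ETV6, an ETS-family repressor, lost 1033 bp just upstream of its start, with 416 and 1033 bp covered after DMSO and 342 and 266 bp after Corin, while 3948 bp on the other side of the start were retained. It also lost a distal 679 bp inside the gene, which complete-list peaks covered for 675 and 679 bp in the Corin libraries and 679 and 502 bp in the DMSO ones. SATB1, a chromatin organiser named here after its values were seen, lost 856 bp between retained regions of 8668 and 2977 bp. MECOM, which encodes EVI1, differed from these in having no retained region: its lost 1478 bp was the only region tested within the gene, with ranks of 27168 and 22720 after DMSO, 37856 and 32918 after Corin, and no H3K27ac or H3K4me3 peak. EYA1, a further MLL-fusion target, ranked 26621 and 28693 after DMSO and 35824 and 33989 after Corin and had neither other mark. In DMSO replicate 1 the lost promoter regions of ETV6 and MEF2C and the SATB1 region ranked 30817, 30165 and 30255, close to the cutoff. In DMSO replicate 2 they ranked 15281, 29853 and 28564. After Corin the ETV6 promoter region ranked 36088 and 38031 and the SATB1 region 34734 and 39910. The distal regions of MEF2C and ETV6 ranked 29003 and 21028 in DMSO replicate 1 and 26646 and 28520 in DMSO replicate 2.

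Chromosome X held the highest share of lost regions among the autosomes and X, while chromosome Y had 3 of 34 (8.82%). On X, 46 of 950 tested regions were lost (4.84%), against 1.7% over all chromosomes, or 7.38% against 2.5% of the regions with a kept peak in both DMSO lists. On X 1.47% were gained, against 3.91%. The split was 32 of 547 promoters (5.85%) and 14 of 403 distal regions (3.47%). Among regions in the last 25% of the DMSO ranks, 18.7% of promoters were lost on X against 13.6% over all chromosomes, and 14.1% of distal regions against 7.87%. Chromosome 8 promoters in that range had 21.9%, from 7 of 32. The X chromosome's share of kept H3K4me2 peaks was 2.22% and 2.31% after Corin and 2.79% and 2.84% after DMSO. In the complete lists it was 2.71% and 2.71% against 2.79% and 2.92%. The order of the treatments was the same in both comparisons, but the gap was smaller before the lists were cut. For the other marks, 19 H3K27ac regions on X were lost (3.45%, against 1.59% over all chromosomes) and 6 H3K4me3 regions (1.6%, against 0.882%). X was also high there in a split that crosses treatment: replicate 2 only took 7.27% of H3K27ac regions on X, against 4.37%, and 3.19% of H3K4me3 regions, against 1.37%. For H3K4me2 that split took 1.89% on X, against 2.1%.

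Of the 46 lost regions on X, the leading ones were the promoters of MID1IP1, FAM199X and RBMX2. MID1IP1 ranked 18977 and 17599 after DMSO and 33169 and 31619 after Corin, FAM199X 19276 and 18215 against 32087 and 37329, and RBMX2 20327 and 18216 against 31924 and 36031. The 32 lost X promoters had a H3K4me3 peak in 59.4% and 56.2% of cases after Corin and in 50% and 68.8% after DMSO. Of these 32, 25 (78.1%) still had a peak in both complete Corin lists, against 62.8% of lost promoters elsewhere. Over all ranks, 10 of 1949 regions on chromosome 19 (0.513%) and 15 of 1572 on chromosome 8 (0.954%) were lost, and chromosome 8 had the highest share of gained regions, 7.63%.

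**Figure D4:**
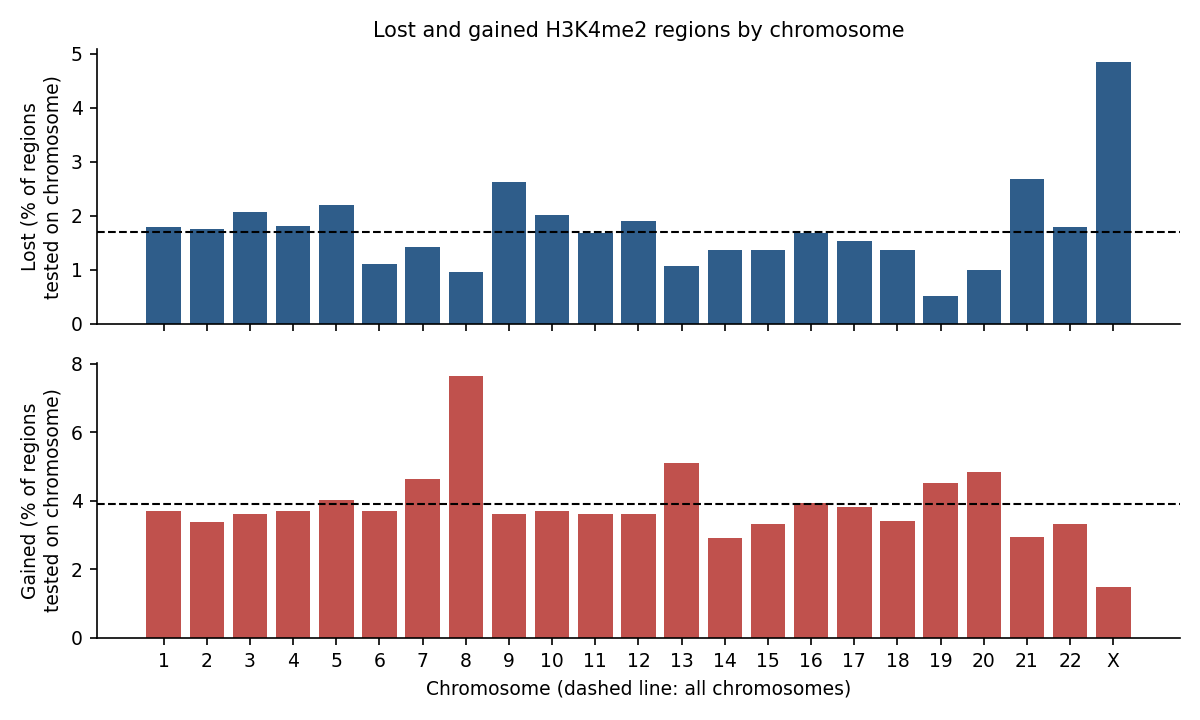
Percent of tested H3K4me2 regions that were lost (upper panel) or gained (lower panel) on each autosome and on X, with the share over all chromosomes as a dashed line. X has the tallest bar among lost regions, 4.84%, and the shortest among gained ones, 1.47%.

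Motif letters in the central 200 bp were counted on both strands, beside all tested regions of the same class and window. Among distal regions, the AP-1 letters TGANTCA were found in 5.97% of the lost, 10.9% of all tested and 13.2% of the gained. The GFI1 core AATCAC was found in 7.46%, 8.65% and 12.3%, and the RUNX letters TGTGGTT in 5.97%, 7.0% and 9.19%. The GATA letters AGATAA went the other way, with 14.2% of the lost against 10.0% of all tested and 9.51% of the gained, as did the ETS letters CCGGAAG, with 3.36% (9 of 268) against 1.75% and 1.05%. At promoters GATA was found in 4.31% of the lost and 6.91% of all tested, and ETS in 3.38% and 3.48%. Among promoters, the GC box GGGCGGG was found in 20.9% of the lost, 17.1% of all tested and 4.96% of the gained, and AP-1 in 2.77%, 4.44% and 9.92%. The other letters searched were TTGCNNAA (C/EBP), CACGTG (E-box), CCACNAG (part of the CTCF site), TTCCCGC (E2F), GCGCNTGCG (NRF1) and AAGATGG (YY1), besides those shown with the sequences. MEIS, the motif in the UQCRC1 and VCAN windows, was found in 12.9% of lost and 10.3% of tested promoters, and in 12.7% and 13.9% of distal regions. Among retained distal regions AP-1 was found in 9.51%, GFI1 in 7.49%, RUNX in 6.6%, GATA in 9.19% and ETS in 2.24%, so the GFI1 share of the lost was close to that of the retained, and among retained promoters the GC box in 17.3%. A match is a run of letters and not a bound site.

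**Figure D5:**
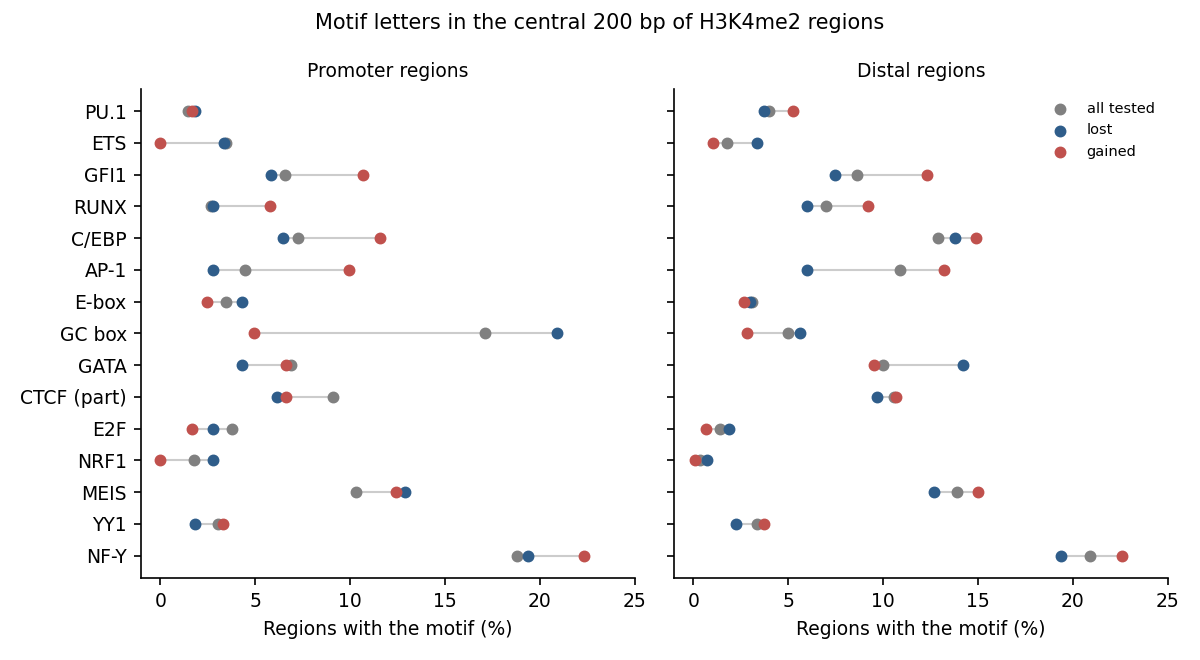
Share of promoter (left) and distal (right) H3K4me2 regions whose central 200 bp hold the letters of each of 15 motifs on either strand (horizontal axis, percent); grey points are all tested regions, blue points lost and red points gained regions. The widest spacing between lost and gained promoters is at the GC box, 20.9% against 4.96%, and among distal regions at AP-1, 5.97% against 13.2%.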

How the data were processed

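Peak lists of 12 CUT&RUN libraries were used, 1 list per library. Per the submitters' processing notes, the tools were Trim Galore, Bowtie2, Picard and MACS2 on hg38, with no versions or settings. The deposited score of each peak holds whole numbers from 50 up, and its definition is not given in the sources used here. No count test is possible on such lists. Read depth per library is not given beyond the labelled minimum of 5000000 paired 150 bp reads, so precision rests on the spread between 2 libraries.

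Groups and replicate numbers came from the sample labels. Each list was cut to the shortest list of its mark (30896, 17599 and 11104 peaks for H3K4me2, H3K27ac and H3K4me3), ties in file order. Kept H3K4me2 peaks that overlapped were merged, and a region had a mark where a kept peak overlapped it by at least 1 bp. Promoters lay within 1000 bp of 84610 TSS positions of GENCODE release 44 protein-coding and lncRNA basic transcripts. A marker or list gene was tested where a union region lay within that distance. Coordinates are hg38, counted from 1, and 0 of 292523 peaks ended past a chromosome end. Sequences are from hg38.

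Shares were compared by exact permutation of the 4 libraries (8 tests, Benjamini-Hochberg adjustment), with Python 3.11.15, numpy 2.4.6 and scipy 1.17.1. The ± values are square roots of the summed variances of the 2 groups, the SD of a difference between single libraries of each treatment. They are not divided by the number of libraries, so the SD of the difference of the 2 means would be smaller. Region calling and test were tested on simulated lists. Same-numbered libraries deviated together (correlations 0.293, 0.255 and 0.228 for H3K4me2, H3K27ac and H3K4me3 over 34863 regions), though no label ties a number to a culture or day, so the replicate block was an alternative. Other alternatives changed the number of peaks kept, the matching, the overlap, the merging and the promoter distance, and left out each library.

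Regions named are the 12 best-ranked by worse DMSO rank, the 3 widest and the 5 best-ranked without a complete-list Corin peak, for promoters and distal regions apart, up to 6 lost promoters of each of 17 gene lists, and the neighbours of the cutoff. A few regions and 1 sequence are not reported here. Other regions in the text were named after their values were seen. The members and lists were chosen with earlier results of these data known.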

Additional observations from a re-analysis of the deposited data

How the results depend on the processing

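The number of lost regions, 593, was 67 with all peaks, 2235 with matched covered length and 1251 to 2208 when each H3K4me2 library was left out in turn (1750 without Corin replicate 1, 1251 without Corin replicate 2, 2208 without DMSO replicate 1 and 1886 without DMSO replicate 2), since fewer lists then set the condition. Of the 593, 119 were also lost with 25000 peaks, 13 with 20000, 60 with all peaks, 228 with matched covered length, 587 with ties reversed, 430 with at least 50% of the region covered and 436 with regions merged within 500 bp. The promoter share, 54.8%, was 68.8% with 25000 peaks, 78.5% with 20000, 41.8% with all peaks, 64.6% with matched covered length, 59.9% with at least 50% of the region covered, 46.3% with regions merged within 500 bp, 48.1% and 59.9% with promoters within 500 and 2000 bp and 49.2% with protein-coding TSS only. Leaving out 1 library gave 34.7% (without DMSO replicate 2) to 53.6%. In alternatives chosen after seeing the data, 391 regions had no kept Corin peak within 1000 bp, with 43.5% at promoters, 547 were left without chromosome X, with 53.6% at promoters, and merging peaks that only touch gave 591 regions.

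No test of another mark could pass 0.05 under any setting. For the Corin minus DMSO difference in percentage points, the H3K27ac share of lost promoters, 2.0, was 11.8 with all peaks of each list and 3.38 with at least 50% covered and ran from 0.462 to 3.54 with 1 library left out, and that of lost distal regions, 0, was 9.33 with all peaks of each list and 2.24 with at least 50% covered and ran from -1.31 to 1.31. The H3K4me3 share of lost distal regions, 0, was 0.812 and 0.420 with promoters within 500 and 2000 bp. The H3K4me3 share of lost promoters, 0.769, was 2.15 with all peaks, -0.615 with at least 50% covered and -1.23 to 2.77 with 1 library left out. The gaps to retained regions also reversed: H3K4me3 at promoters (1.06) was -4.46 with at least 50% covered and ran from 0.0329 to 2.08 with 1 library left out, H3K4me3 at distal regions (-0.210) was 0.619 and 0.178 with promoters within 500 and 2000 bp and -1.22 with all peaks, and H3K27ac at promoters (-0.656) ran from -1.96 to 0.646 with 1 library left out and was -4.00 with all peaks and -4.13 with at least 50% covered. The cause was not tested. The H3K27ac gap at distal regions, -6.80, was -10.5 with all peaks and -10.6 with at least 50% covered and ran from -7.14 to -6.47 with 1 library left out, and with the replicate block it was again -6.80 (exact paired sign-flip test p = 0.5, the smallest possible). The replicate block changed no other call.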
